A study of Homo sapiens with 6 samples.

Results

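Septins are named SEPT followed by a number, and spreadsheet programs read such symbols as dates in September. In a table of cassette exon events from human breast cancer cells, 7 septin genes were listed under such dates, for example SEPT9 as 9-Sep. Their events were chosen as the rows whose symbol ended in -Sep and whose gene ID was 4735 (SEPT2, now SEPTIN2), 23157 (SEPT6, SEPTIN6), 989 (SEPT7, SEPTIN7), 23176 (SEPT8, SEPTIN8), 10801 (SEPT9, SEPTIN9), 151011 (SEPT10, SEPTIN10) or 55752 (SEPT11, SEPTIN11). The rule found 59 of 24725 events. The 2 rows listed as 15-Sep belong to the selenoprotein gene SEP15 and were left out. By gene, SEPT2 had 20 events, SEPT7 had 14, SEPT10 had 10, SEPT9 had 7, SEPT6 had 5, SEPT8 had 2 and SEPT11 had 1.

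The study sequenced the RNA of 6 cultures. All were of MDA-MB-231-BrM2a, a derivative of the MDA-MB-231 breast cancer cell line that forms brain metastases. The 3 control cultures were non-clonal and carried the empty vector pRetroX-Tight-Pur, and the 3 RBM47 cultures were 1 clone that carried Flag-tagged wild-type RBM47, an RNA-binding protein, in the same vector under a doxycycline-inducible promoter. Doxycycline was given to every culture at 10 ng/ml over 3 days, so the controls differ from the RBM47 cultures in transgene and in clonal origin, and the effects of these cannot be told apart. The labels do not say that the cultures of a group were independent, so p-values from culture rates measure the spread between these samples, which may be technical. The p-values computed from read totals of a group do not measure this spread. Levels of marker genes of the cell line were not analysed here.

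Septins are GTP-binding proteins that join in a set order into rods, and the rods assemble into filaments beside actin, microtubules and membranes. In dividing cells they form a scaffold at the cleavage furrow. SEPT7 holds a place that no other septin fills, SEPT6, SEPT8, SEPT10 and SEPT11 belong to 1 group whose members can stand in for each other, and SEPT9 is a subunit of the longer rods. Several septin genes, SEPT9 above all, make proteins that differ at their ends through alternative exons and start sites.

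A cassette exon is an exon that can be kept between its neighbours or skipped. Its inclusion rate, a fraction from 0 to 1, sets the reads over its own junctions against those reads and the skipping junction's reads together, with each skipping read counted 2 times. Rates were given for each culture, but reads only as totals of each group, so the depth behind a single culture's rate is unknown. Over both groups, a septin event had from 26 to 8304 reads with a median of 598, against a median of 664 for all events. Most septin events were nearly always included or nearly always skipped, though some events share an exon. The mean rate over all cultures was above 0.9 in 27 events, below 0.1 in 18 and between 0.1 and 0.9 in 14.

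The question put to these data was which exons were included more or less often with RBM47. Under the study's criteria (no fewer than 10 reads, mean rates at least 0.2 apart, and an unadjusted two-sided Fisher's exact p on the group totals that does not exceed 0.05), 4 septin events were higher with RBM47 and 0 were lower. These 4, of SEPT6 and SEPT9, were 6.78% of the 59 events, while 1.41% of all 24708 events with rates met the criteria in either direction and 0.615% were higher. In a second test that sees the spread between cultures (limma on arcsine square root rates, where a call needs an adjusted p below 0.05 and mean rates at least 0.2 apart), 14 septin events were tested. Of these, 3 were called higher, all of SEPT6, and 0 were called lower. Of all 6000 events tested, 1.53% were called by limma, and 0.75% were called higher. By Fisher's exact test with Benjamini-Hochberg adjustment, 3 septin events passed 0.05, the same 3 of SEPT6, against 5.32% of all events. The 3 SEPT6 events overlap and 2 of them share their skipping reads, as described next, so they do not count as separate observations. Outside SEPT6 and SEPT9 no septin event differed by more than 0.11 in mean rate. The median absolute difference was 0.00619 for septin events and 0.0114 for all events.

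**Figure D1:**
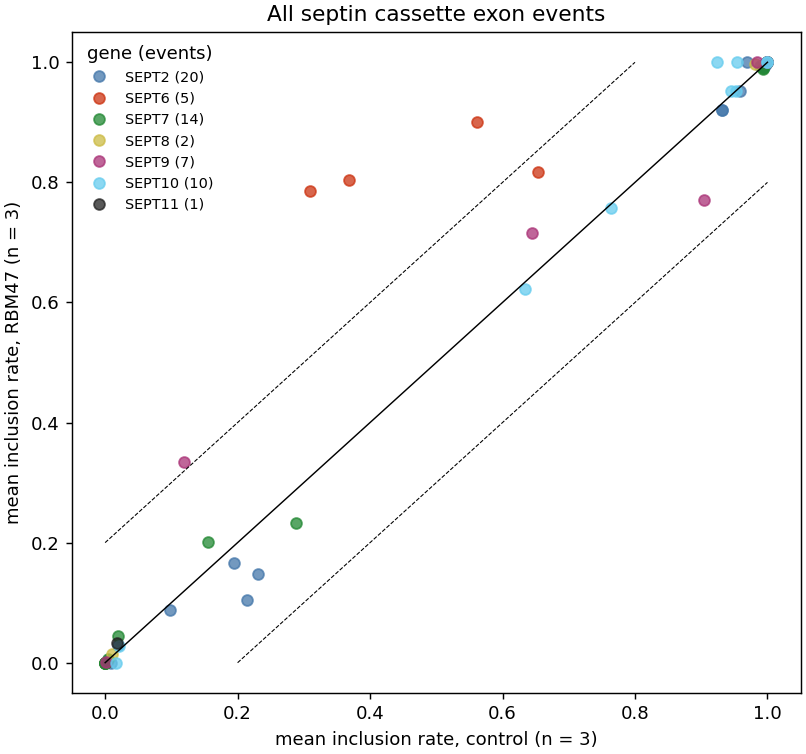
Mean inclusion rate with RBM47 against control for the 59 septin events, 1 point for each event, colored by gene. The solid line marks equal rates and the dashed lines a difference of 0.2. The 4 points above the upper dashed line are SEPT6 events 2, 3 and 4 and SEPT9 event 3.

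SEPT6 had the largest changes among the septins, in an exon near the 3′ end of its mRNA. In the table, SEPT6 events 1 to 4 lie on chromosome X and share the end at 118647498. Their other ends are at 118634702 for event 1, 118636175 for event 2 and 118637832 for events 3 and 4. The sources used here do not name the genome build of these coordinates, which do not fall on the gene in GRCh37. Matching the 12797-base span of event 1 to SEPT6 transcripts in the GENCODE annotation of GRCh37 gave 1 exon of 45 bases on the minus strand, chrX:118759298-118759342, which is present in 4 of 9 annotated transcripts. Its upstream neighbour is chrX:118763281-118763471. Measured from the end shared with event 1, the far end of event 2 falls in annotated last exons at 118750908-118754014 and 118751602-118752749. That of events 3 and 4 falls in 118750908-118754014 and 118753272-118754014. Events 2 to 4 are therefore placed at the same exon region by position only. The annotation also holds a form of the exon that is 62 bases long, 17 more than the other, and the table does not give which event counts which form.

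The sequences at these exons show what inclusion of the 45-base form does to the reading frame. They were read from the GRCh37 genome on the strand of the gene. The 62-base form was not read, and its annotated transcript has no defined coding sequence. Each line gives the last 5 intron bases, then the coding bases up to the stop codon, which is in capitals.
SEPT6 cassette exon (chrX:118759339-118759347): tacagtTAA
SEPT6 last exon, long form (chrX:118753999-118754019): ttcagtttgggcttcctgTAG
SEPT6 last exon, middle form (chrX:118752725-118752754): tgcagtaatccatggctgtgtactgaaTAG
SEPT6 last exon, distal form (chrX:118750696-118750710): tccagcttttttTAA

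With the 45-base exon included, translation ends after 1 coding base of that exon, and the coding sequence has 1281 bases, or 427 codons, in 3 of the 4 annotated transcripts with the exon. The other one is annotated as a target of nonsense-mediated decay with 801 coding bases. With the exon skipped, the long form of the last exon at 118750908-118754014 adds 13 coding bases and gives 431 codons, 4 more. Skipping to the last exon at 118751602-118752749 gives 434 codons, 7 more, and skipping to the one at 118750675-118750705 gives 429, 2 more. Apart from the decay target, the annotated coding forms with and without the exon thus differ in length by a few residues at the C-terminus of SEPT6. No protein was measured.

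In event 2 the control cultures had inclusion rates of 0.364, 0.189 and 0.377, and the RBM47 cultures 0.812, 0.659 and 0.885. All 3 RBM47 cultures were above all 3 controls. The mean rose from 0.310 ± 0.105 to 0.785 ± 0.115 (SD, n = 3 each), a difference of 0.475 with an adjusted p of 0.0423 (limma). In control 75 reads included the exon and 70 skipped it, and with RBM47 128 included and 16 skipped it (Fisher's exact test on the totals, p = 2.56e-12).

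In event 3 the rates were 0.600, 0.536 and 0.547 in control and 0.891, 0.882 and 0.929 with RBM47. The groups stood well apart, with SDs of 0.0344 and 0.0245 around means of 0.561 and 0.901. The difference was 0.340 with an adjusted p of 0.0176 (limma). Including reads went from 124 to 208 while skipping reads went from 43 to 11 (Fisher's exact test, p = 5.62e-09).

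Event 4 has the same ends and the same skipping reads as event 3. Its rates were 0.366, 0.381 and 0.358 in control and 0.778, 0.769 and 0.867 with RBM47. Again the groups did not overlap, and the mean rose from 0.368 ± 0.0115 to 0.805 ± 0.0540 (SD, n = 3 each), a difference of 0.436 with an adjusted p of 0.0423 (limma). Including reads went from 65 to 98, with the skipping reads of event 3 (Fisher's exact test, p = 3.22e-07). For events 2, 3 and 4 alike, the exact permutation test over cultures gave p = 0.1, the smallest that 3 against 3 allows. The limma calls were not stable. On log2 odds in place of the arcsine square root only event 3 stayed below 0.05 (limma adjusted p of 0.108, 0.029 and 0.0973 for events 2, 3 and 4), and event 2 was also lost when no trend was fitted to the variance (0.121) or when events of any mean rate were tested (0.236). Leaving out 1 culture at a time ended all 3 calls in 5 of 6 fits, and only without RBM47 replicate 2 did 2 calls remain, those of events 2 and 3. These fits moved the adjusted p between 0.0377 and 0.163 for event 2, between 0.0341 and 0.0868 for event 3 and between 0.0633 and 0.166 for event 4, with a difference of at least 0.326 each time.

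Event 1, the one matched to the 45-base exon by its whole span, did not pass either test. Its rates were 0.706, 0.455 and 0.800 in control and 0.862, 0.812 and 0.778 with RBM47. The highest control culture lay above the lowest RBM47 culture, and the means were 0.653 ± 0.179 and 0.817 ± 0.0424 (SD, n = 3 each; limma adjusted p = 0.586). Including reads numbered 77 in control and 121 with RBM47, and skipping reads 17 and 13 (Fisher's exact test, p = 0.0750). Summed over the 3 distinct skipping totals of these 4 events, skipping reads numbered 130 in control and 40 with RBM47. SEPT6 event 5, which starts at 118693544 and ends at 118711360, was never included, with a rate of 0 in all 6 cultures and 0 including reads against 106 skipping reads in control and 69 with RBM47.

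In the rows of SEPT6 events 2, 3 and 4 as deposited, the RBM47 rates did not average to the printed RBM47 average. The control rates in these rows did average to the printed control average. They were 0.806, 0.836 and 0.879 in event 2, 0.374, 0.554 and 0.507 in event 3, and 0.765, 0.818 and 0.882 in event 4. The printed RBM47 average identified another row, and the rates of all cultures, controls too, were taken from it. The control rates given here, and the limma calls made with them, rest on that choice. The control averages printed in the 3 rows were 0.840, 0.478 and 0.822, and with them the differences would be -0.0551, 0.423 and -0.0172. The read totals were not re-matched, but in this table the including totals can hold reads beyond those of the rate (for SEPT10 event 1, 548 including reads at a mean rate of 0.0166). Rates computed from the control totals of SEPT6 were 0.349 in event 2, 0.590 in event 3 and 0.430 in event 4. Including reads beyond those of the rate would raise these values. The re-matched control means lie below them in each event. Of the printed control averages, those of events 2 and 4 lie above them and that of event 3 below. With RBM47, rates from the totals were higher by 0.451 in event 2, 0.314 in event 3 and 0.386 in event 4.

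**Figure D2:**
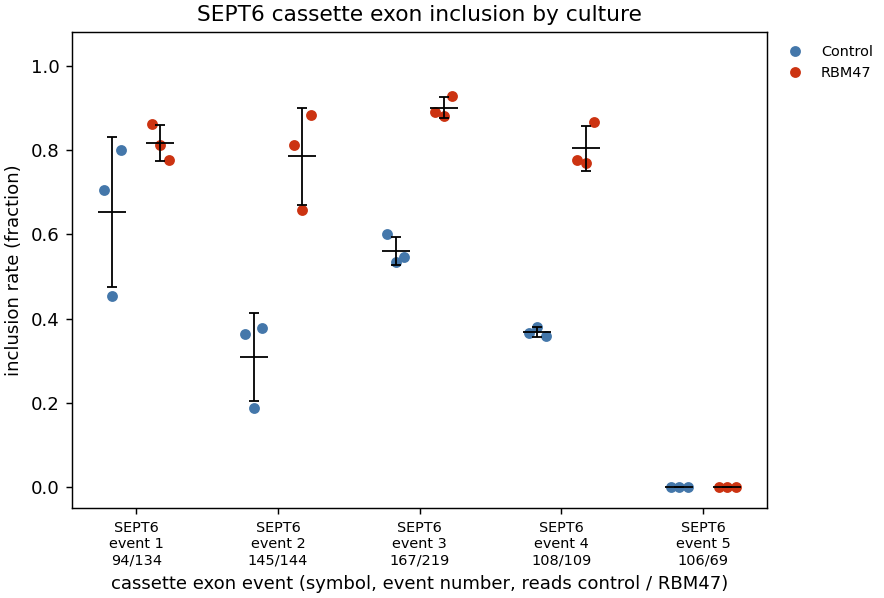
Inclusion rate of the 5 SEPT6 events in each culture (points), with the mean and SD of each group (bars), and the reads of each group under the event. In events 2, 3 and 4 every RBM47 culture, from 0.659 upward, lies above every control culture as re-matched, none of which exceeds 0.600. Event 1 overlaps and event 5 stays at 0. The re-matched control points come from another row, found by the RBM47 average alone. Control rates in the events' own rows are not plotted and reach 0.879 in event 2, 0.554 in event 3 and 0.882 in event 4.

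SEPT9 makes several proteins with different N-termini. None of its events was matched to an annotated exon, so their effect on the protein is not known. SEPT9 event 3, on chromosome 17 at 72795616-72814873 in the table's coordinates, met the study's criteria but not limma's. The rates were 0.143, 0 and 0.212 in control and 0.182, 0.600 and 0.222 with RBM47, so the groups overlapped and 1 RBM47 culture stood apart from the rest. The means were 0.118 ± 0.108 and 0.335 ± 0.231 (SD, n = 3 each), a difference of 0.216 (limma adjusted p = 0.574; exact permutation p = 0.2). It fell to 0.0837 without RBM47 replicate 2 and to 0.157 without control replicate 2. Reads were few, with 17 including and 50 skipping in control and 18 and 18 with RBM47 (Fisher's exact test, p = 0.0164).

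In SEPT9 event 2 (72789127-72802579) the same RBM47 culture was again the highest, with a rate of 1 against 0.613 and 0.533 in the other two and 0.714, 0.647 and 0.571 in control. The difference in mean rate was 0.0712 (limma adjusted p = 0.819), and without that culture it was -0.0711. In SEPT9 event 5 (72802165-72814873) the rates were 1, 1 and 0.714 in control and 0.692, 0.857 and 0.760 with RBM47, a difference of -0.135 (limma adjusted p = 0.575) over 31 and 64 including reads and 1 and 8 skipping reads in the groups. The groups overlapped in both events. The other 4 SEPT9 events had differences of 0 to 0.0161, 3 of them with mean rates above 0.9.

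SEPT2, a core subunit of the rods, was covered by more reads than any other septin. Its exons changed little. In event 1 on chromosome 2 (241903442-241912328), the control rates were close together at 0.198, 0.193 and 0.195, and the RBM47 rates of 0.156, 0.121 and 0.223 lay on both sides of them (difference -0.0283, limma adjusted p = 0.819). Event 3 (241904033-241905686) had 0.241, 0.0667 and 0.333 in control and 0.20, 0 and 0.111 with RBM47, a difference of -0.110 that was within the spread of the cultures (limma adjusted p = 0.736). Event 4 has the same ends and the same skipping totals as event 3, with 0.241, 0.0667 and 0.385 in control and 0.333, 0 and 0.111 with RBM47 (difference -0.0827, limma adjusted p = 0.811). The groups overlapped in all 3. The other 17 SEPT2 events had mean rates above 0.9 in 12 and below 0.1 in 5, with differences from -0.0105 to 0.0316.

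SEPT7, the subunit without a substitute, had 2 events of intermediate use. Event 6 on chromosome 7 (35807353-35839034) had rates of 0.264, 0.284 and 0.317 in control and 0.246, 0.189 and 0.264 with RBM47, a difference of -0.0555 (limma adjusted p = 0.615) over 660 and 338 reads. The highest RBM47 culture equalled the lowest control to 3 digits. Event 14 (35879775-35886074) had 0.153, 0.135 and 0.178 in control and 0.261, 0.135 and 0.206 with RBM47, a difference of 0.0453 (limma adjusted p = 0.825). By span it matched a 124-base exon at chr7:35919206-35919329 in GRCh37 that is noncoding and lies in 1 of 19 annotated transcripts. Event 1 shares its ends and skipping reads with event 6 and was rarely included, at 0.0395, 0.00763 and 0.0119 in control and 0.0336, 0.0549 and 0.0449 with RBM47. The groups overlapped, and 14 including reads in control stood against 21 with RBM47 (Fisher's exact test, p = 0.00599, Benjamini-Hochberg adjusted p = 0.0891). The rates of this event too had been re-matched, by both averages.

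The members of the SEPT6 group other than SEPT6 itself showed no called event. Of all events, 1.41% met the study's criteria and 1.53% of those tested were called by limma. Among these members limma tested only SEPT10 events 9 and 10, as the other events had mean rates outside 0.1 to 0.9. SEPT8 event 1 on chromosome 5 (132125048-132126235) matched a 97-base coding exon at chr5:132097492-132097588 in GRCh37. It was included almost always, at 0.990, 0.969 and 0.987 in control and at 1, 1 and 0.991 with RBM47. The groups did not overlap, but the difference was 0.0151, on 4 skipping reads in control and 1 with RBM47. SEPT10 event 9 on chromosome 2 (109700586-109728822) was included at 0.714, 0.825 and 0.753 in control and at 0.688, 0.714 and 0.872 with RBM47, with nearly equal means of 0.764 ± 0.0561 and 0.758 ± 0.0999 (SD, n = 3 each; limma adjusted p = 0.994). SEPT10 event 10, with the same ends, had 0.544, 0.717 and 0.640 in control and 0.615, 0.50 and 0.750 with RBM47 (limma adjusted p = 0.987). Both groups covered much the same range in the 2 events. SEPT11 event 1 on chromosome 4 (78090016-78136715) was mostly skipped, at 0.0133, 0.0273 and 0.0147 in control and 0.0256, 0 and 0.0714 with RBM47.

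The groups stood apart without overlap in 6 septin events, 5 higher and 1 lower with RBM47, against 9.93% of all events in either direction. Beside SEPT6 events 2, 3 and 4 and SEPT8 event 1, these were SEPT10 event 3, with 0.923, 0.938 and 0.909 in control and 1 in each RBM47 culture, and SEPT2 event 14, with 0.958, 0.958 and 0.962 against 0.946, 0.953 and 0.956. The latter pair were named after their values were seen. The SEPT10 exon matched 187 coding bases at chr2:110332158-110332344 in GRCh37, and its difference of 0.0768 rested on 4 skipping reads in control and 0 with RBM47. From the totals, with 329 including reads in control, the difference was 0.0237 (Fisher's exact test, p = 0.578). The difference of 0.0768 in mean rate was also the largest among the 43 events that did not meet the rule for description culture by culture. SEPT6 event 5 and SEPT7 event 1, given by culture above, are among these 43 too. Of the 59 events, 8 had a rate of 1 and 6 a rate of 0 in every culture.

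**Figure D3:**
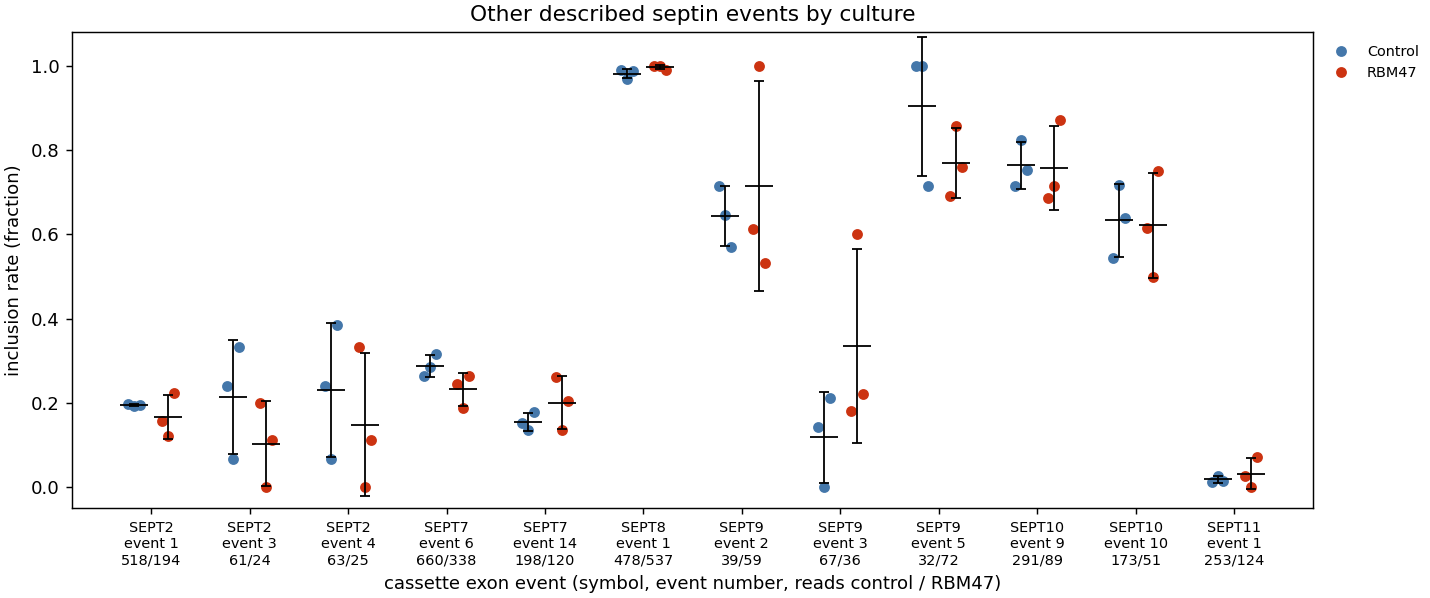
Inclusion rate in each culture (points) with the mean and SD of each group (bars) for the 12 described events of septins other than SEPT6, and the reads of each group under the event. The groups overlap in every event except SEPT8 event 1, and in SEPT9 events 2 and 3 a single RBM47 culture, at 1 and 0.600, lies above the others.

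The junction reads of the septin genes also differed between the groups in number. Summed over events, SEPT10 went from 3833 reads in control to 1157 with RBM47, a ratio of 0.302, and SEPT2 from 36637 to 15972, a ratio of 0.436. The ratio over all events of the table was 0.910. All 10 SEPT10 events and all 20 SEPT2 events were below it. SEPT11 had 253 and 124 reads (ratio 0.490) and SEPT7 had 9087 and 5067 (ratio 0.558), with 11 of 14 events below the table's ratio. SEPT6 had 620 and 675 reads (ratio 1.09), SEPT8 had 512 and 596 (ratio 1.16) and SEPT9 had 4433 and 5704 (ratio 1.29), all above it.

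To place these ratios, 7085 genes had at least 100 control reads, with a median ratio of 0.857 and quartiles of 0.653 and 1.06. SEPT10 was at or above 2.12% of these genes, SEPT2 at or above 7.24%, SEPT11 10.4% and SEPT7 15.4%, while SEPT6 was at or above 77.9%, SEPT8 84.4% and SEPT9 90.7%. Within the SEPT6 group, SEPT10 and SEPT11 thus lay below the lower quartile and SEPT6 and SEPT8 above the upper one. These are totals of a group with no replicate check, and events of 1 gene share reads, so no test was made. Fewer cells of a kind and less RNA per cell cannot be told apart in such samples. The including totals hold reads beyond those of the rate. SEPT10 event 1 had 548 including and 208 skipping reads in control at a mean rate of 0.0166, and the totals are no gene expression level.

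**Figure D4:**
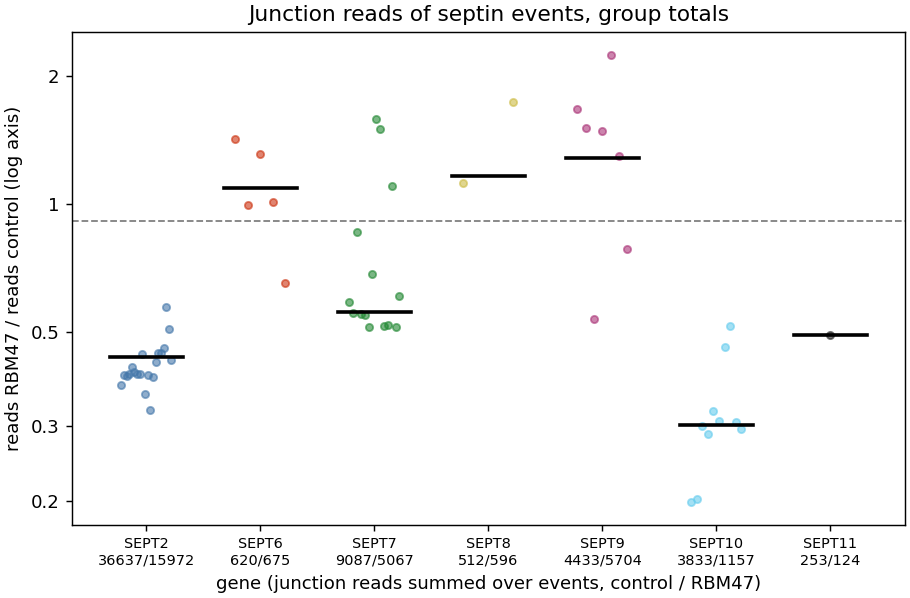
Ratio of junction reads, RBM47 over control, on a log axis, for each septin event (points) and summed over the events of each gene (bars), from group totals without replicates. The dashed line is the ratio of the whole table, 0.910. Every SEPT2, SEPT10 and SEPT11 event is below it, and the sums of SEPT6, SEPT8 and SEPT9 are above it.

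Among 33 listed partners of septins, 26 had events, 109 in all. The list held septin-binding CDC42 effectors, anillin, myosin, formin and other cytokinesis proteins, and also MAP4, SOCS7, NCK1 and SORBS2. Under the study's criteria 2 events were higher and 3 lower with RBM47, 4.59% of the 109 against 1.41% of all events, and limma called 0 higher and 2 lower of 32 tested, against 1.53% of all events tested. All 5 events past the study's criteria took their rates from another row by the RBM47 average alone, as in SEPT6, so their control rates rest on that match. The 2 limma calls were an exon of the actin-nucleating formin DIAPH1, at 0.963, 0.971 and 0.955 in control and 0.739, 0.670 and 0.710 with RBM47 (limma adjusted p = 0.00145), and an exon of the myosin light chain MYL6, at 0.353, 0.335 and 0.327 in control and 0.10, 0.0889 and 0.107 with RBM47 (limma adjusted p = 0.000252). Both fell, and in neither did the groups overlap. Anillin (ANLN), which binds septins at the cleavage furrow, had an event with rates in its own row that rose from a mean of 0.0685 to 0.219 (limma adjusted p = 0.0164), short of the difference of 0.2 that a call required. Events of SORBS2 (0.235 to 0.635, limma adjusted p = 0.424) and DIAPH2 (0.398 to 0.797, limma adjusted p = 0.294, and 0.922 to 0.694, limma adjusted p = 0.132) met the study's criteria alone. The median absolute difference of the 109 events was 0.00676, close to that of the septins.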

How the data were processed

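The authors deposited 1 file of cassette exon events, with for each event the inclusion rate of each sample and the average of each group as fractions, and read counts summed over the 3 samples of a group for the including and the skipping isoform. Columns with the authors' difference, odds ratio and Fisher p-value hold their own comparisons and were not used. The study's methods name STAR and hg19 for RNA-seq of the cell lines, the submitters' processing notes name TopHat, and the build of the table's coordinates is not given in the sources used here. Counts were used as group totals only, and the depth of single samples is therefore unknown.

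Members and lists were chosen with earlier results of these data known. In 1392 of 24725 rows, all with a Fisher p of at most 0.05, the rates of either or both groups did not average to the printed average within 3e-09. Rates were re-matched by both averages in 1122 rows and by the RBM47 average alone in 253. In all 253 the difference from the read totals then had the same sign, and 17 rows were left without rates. Of the septin rows, 55 were aligned and 4 were re-matched.

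Fisher's exact test (scipy 1.17.1, two-sided) was computed from the totals for each event. Rates were tested with limma 3.58.1 in R 4.3.3 on the arcsine square root scale (mean rates of 0.1 to 0.9, variance trend fitted on log2 reads), adjusted by Benjamini-Hochberg over all 6000 tested. An exact permutation test (two-sided) was run for single events. The procedure was tested on simulated data. Septin events were described culture by culture if they met the study's criteria, passed an adjusted Fisher or limma p of 0.05 or had a mean rate of 0.1 to 0.9; in a gene with no such event, the event with the most reads was taken. SEPT2 event 14, SEPT6 event 5, SEPT7 event 1 and SEPT10 event 3 did not meet this rule and were also given by culture. Of the partners, at most 6 events past either test were named. Exons were matched to GENCODE v44lift37 by gene and outer span, and 14 septin events matched 1 exon each.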

Additional observations from a re-analysis of the deposited data

How the results depend on the processing

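The count of 4 septin events under the study's criteria became 2 with the averages printed in the rows, and 1 (SEPT9 event 3) when only rows aligned as deposited were kept, since the SEPT6 rows that passed are not aligned. The count of 3 limma calls became 1 on log2 odds with 0.01 added and 0 with aligned rows only, and leaving out each replicate in turn gave 0 to 2, with 0 in 5 of 6 fits and 2 only without RBM47 replicate 2. The cause of the change on log2 odds was not tested. With the replicate block it was 1, with adjusted p of 0.0651 for SEPT6 event 3 and 0.12 for event 4. Replicate numbers do not pair the samples (correlations of same-numbered deviations -0.0198, -0.00294 and 0.0152).

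Of 158 alternatives for the 16 described events, 123 kept direction and call, 21 lost the limma call or the study's call and 14 changed sign. The difference of SEPT6 event 2 was -0.469 with the rates standing in its row and -0.0551 with the printed averages. For event 3 it was -0.306 with the rates in its row, and for event 4 it was -0.487 and -0.0172. From summed reads SEPT9 event 2 was -0.0207 and SEPT10 event 9 was 0.000184. Leaving out each replicate gave -0.0711 to 0.162 for SEPT9 event 2, -0.0633 to 0.0291 for SEPT10 event 9, -0.076 to 0.049 for SEPT10 event 10 and -0.00563 to 0.0301 for SEPT11 event 1. SEPT9 event 3, under the study's criteria, was 0.188 from summed reads, below the minimum difference. With 3 samples in a group no outlier test was made, and reads per sample, not analysed here, would be needed to weight the rates by depth.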
